A study of Homo sapiens with 58 samples.

Results

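The report covers 8 genes that encode surface proteins used to sort breast stem and progenitor cells, CD44, CD24, EPCAM, PROM1, THY1, ENG, MME and NGFR, out of the 19798 genes with a probe set of their own on the array. The samples were 58 human lines that the labels call breast cancer, each profiled for messenger RNA on 1 custom Affymetrix array. All lines belonged to the same labelled group, were untreated and were grown as their vendor advises, so the comparisons run across lines and not between treated groups. For each member the probe set with the highest mean among those naming that gene alone was taken as its level, in log2 intensity. CD44 and MME had 4 such probe sets each, THY1 had 3, EPCAM and ENG had 2, and CD24, PROM1 and NGFR had 1. A further CD24 probe set named CD24 together with CD24P4 and was left out of the levels.

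CD44 is a receptor for the matrix sugar hyaluronan, and CD24 is a small sialoglycoprotein held in the membrane by a lipid anchor. Breast tumour cells with much CD44 and little CD24 on their surface have been described as enriched for the capacity to start new tumours, and EPCAM, an epithelial adhesion protein, is used with CD44 and CD24 in such sorts. In the normal mammary gland, EPCAM separates luminal from basal and stromal cells, and MME (CD10) and THY1 (CD90) mark basal, myoepithelial and stromal cells. The array measured messenger RNA in whole cultures, so surface protein was not measured, and fewer expressing cells and less RNA per cell cannot be told apart.

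The promoters of 3 members, the first window listed for each, are shown because PROM1 rose with CD24 across the lines and both fell with CD44 in 1 of the fits, and because the repressor gene ZEB2 was among the genes least like CD24. ZEB1, ZEB2 and the SNAI factors are repressors that bind E-boxes with the letters CACCTG, or CAGGTG on the other strand. RefSeq windows of build GRCh38.p14, from 250 bases before to 50 after a gene start, were found for 5 of the 8 members, in 13 windows. No window was listed for EPCAM, THY1 and NGFR. Each sequence reads 5′ to 3′ on the gene's strand, with every match to either form of the E-box in capitals. CD44 is at chr11:35138921-35139220 on the plus strand, the first CD24 window at chr6:106975578-106975877 on the minus strand, and the first PROM1 window at chr4:16083974-16084273 on the minus strand.
CD44: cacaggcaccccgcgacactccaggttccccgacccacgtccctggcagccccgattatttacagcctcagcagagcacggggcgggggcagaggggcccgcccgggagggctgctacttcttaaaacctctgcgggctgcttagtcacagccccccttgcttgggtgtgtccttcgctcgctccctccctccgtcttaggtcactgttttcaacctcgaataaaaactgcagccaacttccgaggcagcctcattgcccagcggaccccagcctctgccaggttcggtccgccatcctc
CD24: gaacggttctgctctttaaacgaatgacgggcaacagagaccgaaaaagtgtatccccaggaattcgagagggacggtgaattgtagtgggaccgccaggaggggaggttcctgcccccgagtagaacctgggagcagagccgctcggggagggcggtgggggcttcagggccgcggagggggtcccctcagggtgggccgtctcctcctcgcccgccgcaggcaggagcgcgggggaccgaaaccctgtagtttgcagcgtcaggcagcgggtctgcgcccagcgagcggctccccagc
PROM1: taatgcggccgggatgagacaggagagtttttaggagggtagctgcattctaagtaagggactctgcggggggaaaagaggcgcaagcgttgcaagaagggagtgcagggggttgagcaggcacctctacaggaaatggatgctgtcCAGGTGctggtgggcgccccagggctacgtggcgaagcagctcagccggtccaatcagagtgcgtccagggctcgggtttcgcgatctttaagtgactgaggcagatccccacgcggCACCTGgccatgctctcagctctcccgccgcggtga
The PROM1 window shown held 2 matches and the CD24 and CD44 windows shown held 0. Of all windows, 3 of 4 for PROM1, 1 of 3 for CD24, 2 of 4 for MME, 0 of 1 for CD44 and 0 of 1 for ENG held at least 1 match, against 20.6% of the 35116 windows of all genes. The windows of a gene are not separate: 4 pairs overlapped, both MME windows with a match held the same site, and 5 of the 7 distinct sites were those of PROM1. A match is a description of the letters and not evidence of binding.

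Lines known to share an origin were averaged, which left 50 units: AU565 with SKBR3, the 3 EFM192 lines, MDAMB435S with M4A4 and NM2C5, MB157 with MDAMB157, the 2 HMT3522 lines, and VP229 with VP267. A level at or below 5.63, the 95th percentile of 574 probe sets for viral genes, was called background. Array medians lay between 5.37 and 5.58. Some lines stood apart from the label. In HS362T, HS579MG, HS605T and HS739T all 7 measured fibroblast markers were above background, with a summed level of 90.84 to 92.23 against 25.49 to 90.54 in the other 54 lines, and only 2 to 3 of 9 measured epithelial markers were. HS578T was much like them, with 7 of 7 and a summed level of 90.54, and 2 of 9 epithelial markers. All 7 were above background also in HCC1395 (summed level 65.44, 2 of 9 epithelial markers) and MDAMB453 (59.93, 9 of 9), which stayed in every fit. In the 3 MDAMB435 lines, whose breast origin, like that of MT3, has been disputed, 5 to 6 of 6 measured melanocyte and neural crest markers were above background, against at most 3 in the other 55 lines. MB157 and MDAMB157, named as the same tumour, correlated at r = 0.86 over 14651 detected genes, and neither was the other's nearest line, which was HCC38 for MB157 and FR2 for MDAMB157. Of 6 measured blood cell markers, PTPRC and CD3E were at or below background in all 58 lines, while CD14 was above it in 31, LAPTM5 in 15, HCLS1 in 5 and ITGAM in 2. The HS362T, HS579MG, HS605T and HS739T lines, the same 4 with HS578T, the MDAMB435 set with MT3, and the MB157 and MDAMB157 pair were each left out in turn. The part of the blood cell markers in the results was not tested. Whether every line was malignant was not tested either, and MCF12A, MCF102A, SVCT and the HMT3522 lines stayed in every fit.

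CD44 ranged from 2.67 in DU4475 through a median of 11.77 to 13.01 in HCC1806. It was at background in 4 lines, DU4475 (2.67), MFM223 (2.95), EVSAT (4.04) and CAMA1 (5.51), and above 10 in 39. The levels were split into 2 clusters by a mixture rule for separate clusters. It asked for a gain of over 10 in the Bayesian information criterion, a distance between components (Ashman's D) above 2, and no cluster of under 3 units. The low cluster held 18 units between 2.67 and 10.78, and the high cluster 32 units between 11.43 and 13.01. The SD over units was 2.89 and the pooled SD within the sets of common origin 1.07. Within sets, AU565 had 9.17 and SKBR3 6.58, and the EFM192 lines lay between 7.55 and 10.18. In the order of the 58 lines, 55 of 57 neighbouring pairs lay closer together than the SD within sets, and the 2 wider gaps were those on either side of EVSAT. The levels next to the cut between the clusters, 10.78 in ZR7530 and 11.43 in FR2, thus lay closer than that SD too. VP229 (10.78) was counted in the high cluster through its mean with VP267 (12.33).

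CD24 ranged from 3.34 in MDAMB435S through a median of 13.13 to 13.92 in MFM223, with an SD of 2.29 over units and 1.20 within sets. It was above 10 in 48 lines and at background in 2, MDAMB435S and HS605T (4.25). The next lowest lines were NM2C5 (5.73), HS579MG (6.55), M4A4 (6.99), HMT3522T42 (7.32), FR2 (7.55) and HS739T (7.75), all of them above background. CD24 did not meet the rule for separate clusters, as its separation was 1.67. The levels crowded at the top: 55 of 57 neighbouring pairs differed by less than the SD within sets.

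EPCAM was split into 2 clusters, with no unit between 11.34 and 12.62. It ranged from 3.997 in MDAMB435S through a median of 12.92 to 13.31 in MFM223, with 34 units in the high cluster and 16 in the low. The 6 lines at background were MDAMB435S, HS605T (4.20), BT549 (5.19), NM2C5 (5.32), HCC1395 (5.37) and HS579MG (5.56). The low cluster was wide, with MDAMB231 highest at 11.34 and HS605T lowest, while the high cluster spanned 12.62 to 13.31. The SD over units was 2.95 and the SD within sets 1.44, or 0.89 without the MB157 and MDAMB157 pair. The widest gap within a set was that of MB157, with 13.23, and MDAMB157, with 8.55. Their mean of 10.89 put this unit in the low cluster, although MB157 itself lay in the range of the high cluster.

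**Figure D1:**
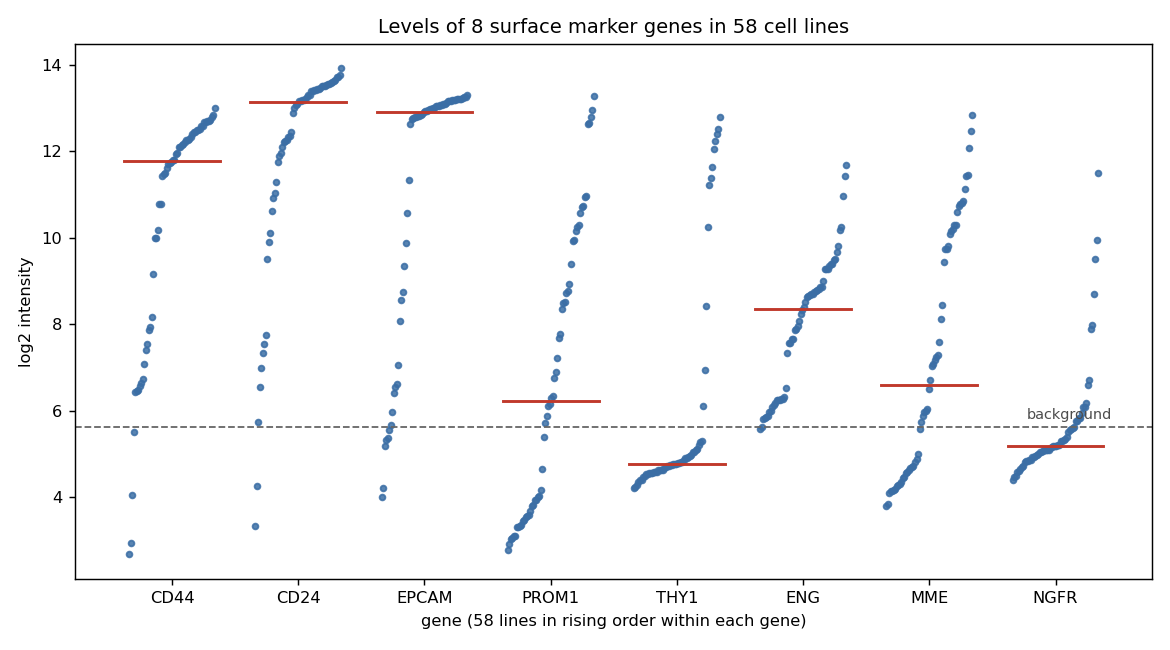
Log2 intensity of each of the 8 genes in the 58 lines, 1 point per line in rising order within its gene, with a red bar at the median of the lines and a dashed line at background (5.63). CD44, CD24 and EPCAM have medians of 11.77, 13.13 and 12.92 with a tail of low lines, whereas THY1 and NGFR have medians of 4.78 and 5.18 with a tail of high lines.

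PROM1 encodes prominin 1 (CD133), a cholesterol-binding protein of membrane protrusions. It had the widest spread over units of the 8 genes, an SD of 3.22, at the 99.4th percentile of the SDs of all detected genes, whose median SD was 0.70. It ranged from 2.79 in HS739T through a median of 6.22 to 13.29 in MB157, followed by HCC1187 (12.96), MDAMB468 (12.78), ZR7530 (12.66) and HCC70 (12.62). In 25 lines it was at background. The SD within sets was 3.03, but 1.94 without the MB157 and MDAMB157 pair, on which much of it rests. MB157 had 13.29 and MDAMB157 3.58, VP229 had 8.50 and VP267 3.10, and AU565 had 10.93 and SKBR3 8.35.

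THY1 was at background in 46 of the 58 lines, with a median of 4.78, and was high in few. HS578T had 12.79, HS739T 12.51, HS579MG 12.39, HS605T 12.24, HS362T 12.05, FR2 11.63, BT549 11.38, SVCT 11.22 and MDAMB435S 10.24. Below these came HCC1806 (8.43), MDAMB453 (6.93) and CAL120 (6.12). HS362T, HS579MG, HS605T, HS739T and HS578T, in which all 7 fibroblast markers were above background, were the 5 highest, but HCC1395, in which they were too, had THY1 at background (4.56). Of these 12 lines SVCT, HCC1806 and MDAMB453 had EPCAM of 13.07, 13.18 and 12.996, in its high cluster. MDAMB435S stood apart from M4A4 (5.28) and NM2C5 (5.29), its partners in origin.

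ENG encodes endoglin (CD105), a co-receptor for ligands of the TGF-beta family. It ranged from 5.58 in CAL148 through a median of 8.36 to 11.68 in HS579MG, and HS362T (11.43), HS739T (10.97), HS605T (10.24) and MDAMB435S (10.17) followed. Its SD was 1.63 over units and 0.64 within sets. It was at background in 2 lines by the probe set used, but in 17 lines when the mean of its 2 probe sets was taken, since the other probe set reached only 7.64.

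MME encodes neprilysin (CD10), a zinc peptidase that cleaves signalling peptides outside the cell. It ranged from 3.79 in MDAMB231 through a median of 6.60 to 12.83 in MCF12A, with MT3 at 12.48, MDAMB157 at 12.07, HS362T at 11.46 and HCC38 at 11.43 next. MME was at background in 23 lines. As for PROM1, lines of 1 origin differed: MDAMB157 had 12.07 and MB157 7.59, and VP229 had 10.29 and VP267 4.72. Its SD was 2.81 over units and 1.87 within sets.

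NGFR encodes the low-affinity receptor for nerve growth factor and its relatives. It was at background in 42 lines, with a median of 5.18 and an SD of 1.47. SW527 had 11.50, DU4475 9.95, HCC38 9.51, HCC1187 8.70, HCC1937 7.97 and HCC1395 7.89. Of the 16 lines with NGFR above background, 2 had THY1 above it, HCC1806 and SVCT, against 12 of all 58 lines.

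**Figure D2:**
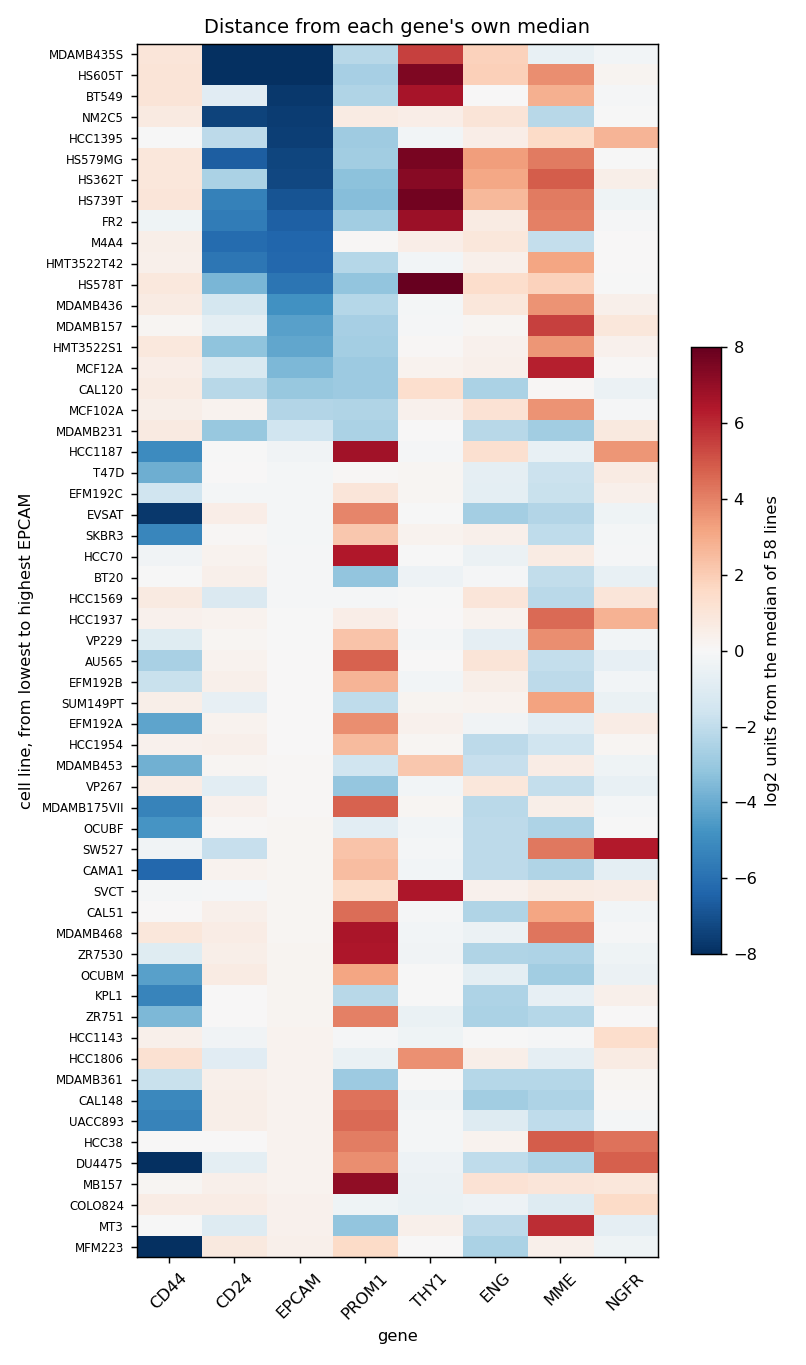
Distance of each gene's log2 intensity from its own median over the 58 lines, with lines as rows from lowest to highest EPCAM and colours that stop at 8 log2 units. The lines at the top, with EPCAM below its high cluster, have CD44 at or near its high levels, and the lines with CD44 far below its median all lie further down, among the high EPCAM lines.

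CD44 was set against CD24 and EPCAM as their joint levels first. All 18 units of the low CD44 cluster lay in the high EPCAM cluster, and 0 lay in the low one. The 32 units of the high CD44 cluster were spread over both, with 16 in the high and 16 in the low EPCAM cluster. In the units with low CD44, CD24 lay between 12.33 (DU4475) and 13.92 (MFM223). In the 16 units with high CD44 and high EPCAM, CD24 lay between 11.29 (SW527) and 13.71 (COLO824), and in the 16 with high CD44 and low EPCAM it lay between 4.25 (HS605T) and 13.40 (MCF102A). Low CD24 therefore occurred in units with high CD44, whereas high CD24 occurred at every level of CD44. The units with CD24 below 10 were HS605T, HS579MG, HS739T, HS578T, FR2, the MDAMB435 set and the HMT3522 set. FR2 had 6 of 7 fibroblast and 2 of 9 epithelial markers above background, HMT3522T42 had 5 and 3, and HMT3522S1 had 3 and 5. Low CD24 thus lay largely in lines with few epithelial markers. Counted against background, 2 of 58 lines had CD44 above and CD24 at background (MDAMB435S and HS605T), 4 had the reverse (DU4475, MFM223, EVSAT and CAMA1), and 52 had both above. Both MDAMB435S and HS605T are among the lines that stood apart from the label. MDAMB435S had 5 of 6 melanocyte and neural crest markers above background, and HS605T had 7 of 7 fibroblast and 2 of 9 epithelial markers above it. For EPCAM, 6 lines had CD44 above and EPCAM at background, 4 the reverse, and 48 both above. CD24 and EPCAM came apart in 4 lines with CD24 above and EPCAM at background. Among these BT549 had CD24 of 12.22 with EPCAM of 5.19, and HCC1395 had 11.03 with 5.37.

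**Figure D3:**
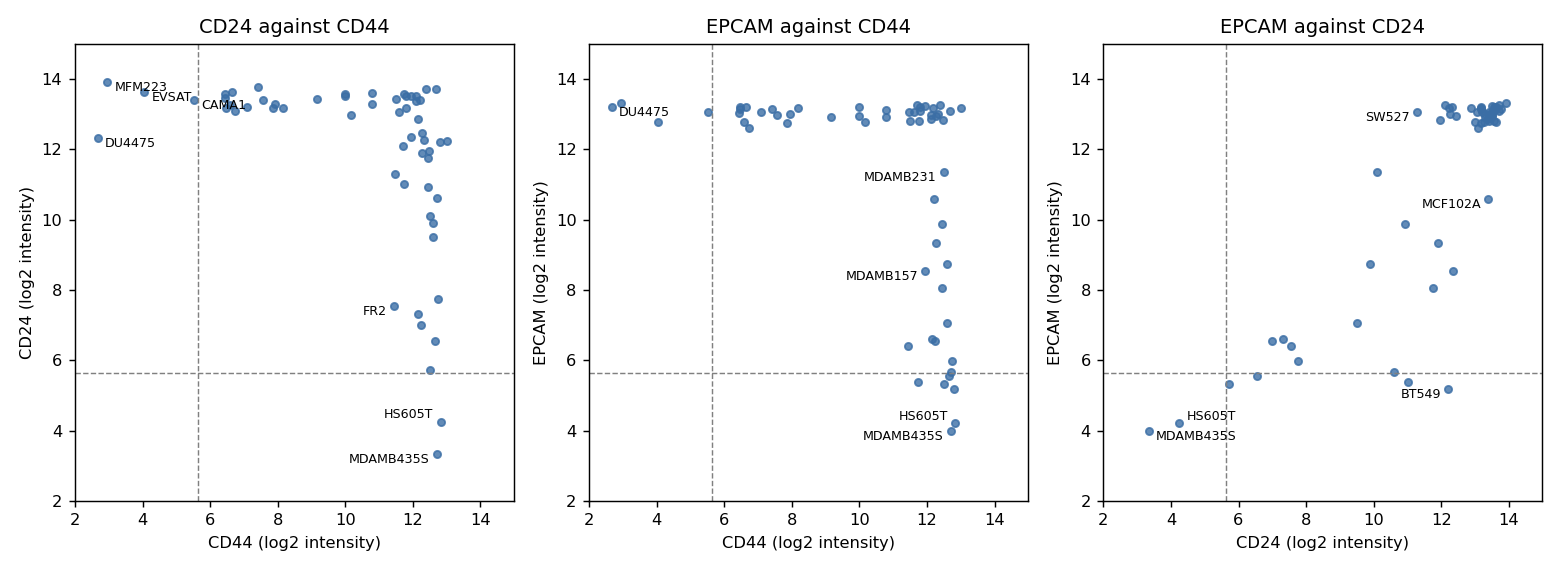
Log2 intensity of CD24 against CD44, EPCAM against CD44 and EPCAM against CD24 in the 58 lines, 1 point per line, with dashed lines at background (5.63). In both plots against CD44 the points form 2 arms: low CD44 occurs with high CD24 or EPCAM, and low CD24 or EPCAM with CD44 above 11.

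Within clusters the pairs were described by Pearson's r and Spearman's rho, with no test. PROM1, THY1, ENG, MME and NGFR were split by the same mixture rule. The high clusters of PROM1 and MME began below background, at 4.65 and 5.57, so high there means the upper cluster only. The points share the platform and its normalization. CD44 and CD24 had r = -0.36 and rho = -0.37 over the 32 units with high CD44, and r = -0.14 when HS362T, HS579MG, HS605T and HS739T were left out. Over the 18 units with low CD44, r was 0.18 and rho -0.11, and r was -0.32 without DU4475, so its sign rests on that line. CD44 and EPCAM had r = -0.26 and rho = -0.51 over the 16 units high in CD44 and low in EPCAM, and r = -0.80 without FR2 and HCC1395, the units farthest from the median of CD44. In the 14 units left, CD44 spanned only 11.95 (MB157 with MDAMB157) to 12.83 (HS605T), a range below its SD within sets of 1.07. CD24 and EPCAM had r = 0.63 and rho = 0.52 over the 16 units with low EPCAM, and r = 0.02 over the 34 with high EPCAM. CD24 and ENG had r = -0.67 and rho = -0.73 over the 32 units with high ENG, and r = -0.70 without HS605T and MDAMB435. The highest ENG levels were those of HS579MG, HS362T, HS739T and HS605T, and r was not computed without all of them. THY1 and MME had r = 0.77 and rho = 0.71 over the 11 units high in both, among them HS362T, HS579MG, HS605T, HS739T and HS578T. CD44 and MME had r = -0.01 over the 27 units high in both.

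The level of CD44 was then fitted as a continuous term for every other detected gene, by limma over the 50 units, with the CD44 cluster as a second term, so that the slope measures change within clusters. A slope is the change of a gene in log2 units per log2 unit of CD44, and p was adjusted over 14650 genes by the Benjamini-Hochberg method. Within clusters 5 genes rose with CD44, 0.0341% of those tested, and 0 fell (0%), although 629 had an unadjusted p under 0.05 upwards and 789 downwards. With the mean of probe sets as the level of every gene, CD44 no longer formed separate clusters, the term dropped out, and 1367 genes rose and 1973 fell. The 5 genes were OTOR (slope 0.70, SE 0.11, adjusted p = 0.00176), a secreted protein known from the inner ear, HSPA1A (0.98), a heat shock chaperone, PDK2 (0.44), a kinase that inhibits pyruvate dehydrogenase, TNFRSF12A (0.35), the receptor for the cytokine TWEAK, and NDST1 (0.34), an enzyme of heparan sulfate synthesis. They are named because there were no others, and after their values were seen. HSPA1A has a near-identical paralog, so its probe set may read both, and OTOR was at background in 46 lines. ZR7530, the unit with the highest CD44 of the low cluster, had the highest level of OTOR, HSPA1A and PDK2, and MFM223, with the second lowest CD44, the lowest level of HSPA1A, PDK2 and TNFRSF12A. No member passed the test in this fit: the slopes were -0.13 (SE 0.22) for CD24, -0.24 (SE 0.28) for EPCAM, -0.31 (SE 0.31) for PROM1, 0.24 (SE 0.27) for THY1, 0.22 (SE 0.15) for ENG, -0.11 (SE 0.23) for MME and -0.28 (SE 0.15) for NGFR, with adjusted p from 0.571 to 0.935. Of the 136 tested genes of the 18 lists used here, 0 passed, and 7 rose and 0 fell at an unadjusted p under 0.05.

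Without the cluster term, which counts the difference between the clusters too, 1517 genes rose with CD44 (10.4%) and 2191 fell (15%). CD24 fell by 0.34 per unit of CD44 (SE 0.10, adjusted p = 0.0114), EPCAM fell by 0.47 (SE 0.13, adjusted p = 0.00531) and PROM1 fell by 0.52 (SE 0.14, adjusted p = 0.0051). MME rose by 0.53 (SE 0.11, adjusted p = 0.000636), ENG by 0.31 (SE 0.07, adjusted p = 0.000581) and THY1 by 0.34 (SE 0.12, adjusted p = 0.0357). NGFR had a slope of -0.02 (SE 0.07, adjusted p = 0.884). So 6 of the 7 other members changed with CD44 once the difference between its clusters was counted, and none passed within clusters. The SEs were larger within clusters (for CD24 0.22 against 0.10), so that fit was less precise. Without HS362T, HS579MG, HS605T and HS739T, THY1 missed the threshold (slope 0.20, adjusted p = 0.175). It also did so with the mean of probe sets as the level of every gene, CD44 included (adjusted p = 0.116). PROM1 (-0.45), ENG (0.25) and MME (0.47) passed without those lines. The slopes of CD24 and EPCAM on CD44 were -0.23 (adjusted p = 0.0423) and -0.34 (0.03) without the 4 lines. With HS578T left out as well, CD24 missed the threshold (-0.21, adjusted p = 0.0612) and EPCAM passed (-0.31, adjusted p = 0.0452).

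The lists around CD44 were counted in this fit, beside a median slope of -0.01 over all genes. Of 16 tested genes among hyaluronan enzymes and CD44 partners 5 rose and 1 fell, with a median slope of 0.08. Moesin (MSN, 0.98, adjusted p = 1.92e-09), which ties CD44 to the actin cortex, MMP14 (0.31), a membrane protease that cleaves CD44, and CEMIP2 (0.16), a hyaluronan-degrading protein, rose, while the splicing factor ESRP1 was the gene that fell (-0.60). HAS1 and HYAL1 were not measured by a probe set of their own. All 9 tested epithelial identity genes fell, with a median of -0.44. Of 12 mesenchymal stromal genes 9 rose and 0 fell (median 0.47), led by the receptor kinase AXL (0.99), the nucleotidase NT5E (0.72) and vimentin (VIM, 0.83). Of 9 mature luminal genes 7 fell and 0 rose (median -0.36), with SPDEF (-0.65), FOXA1 (-0.73) and TFF3 (-0.55) first. Of 10 basal and stem genes 3 rose and 1 fell: the repressor SNAI2 (0.87), the protein C receptor PROCR (0.56) and ITGB1 (0.07) rose and the Polycomb gene BMI1 fell (-0.09). Of 7 fibroblast markers 5 rose (median 0.42). Of 11 luminal progenitor genes 1 rose and 4 fell, while their median slope was 0.09: the cytokine LIF rose (0.31), and the mucin MUC1 (-0.34) and the transcription factor ELF5 (-0.50) were the first to fall by adjusted p.

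CD24, with no separate clusters, was fitted without such a term. Here 2140 genes rose with it (14.6%) and 1648 fell (11.2%). Without HS362T, HS579MG, HS605T and HS739T these counts were 945 and 637, and 693 and 411 without HS578T as well. EPCAM rose by 1.07 per unit of CD24 (SE 0.10, adjusted p = 4.26e-11) and by 1.08 without those 4 lines. PROM1 rose by 0.72 (SE 0.17, adjusted p = 0.00123). THY1 fell by 0.79 (SE 0.13, adjusted p = 6.49e-06), ENG by 0.40 (SE 0.08, adjusted p = 0.000368), CD44 by 0.54 (SE 0.16, adjusted p = 0.0105) and MME by 0.43 (SE 0.16, adjusted p = 0.0437). NGFR had a slope of 0.02 (SE 0.09, adjusted p = 0.901). Without the 4 lines CD44 (slope -0.63, adjusted p = 0.0622), ENG (-0.29, adjusted p = 0.0783) and MME (-0.31, adjusted p = 0.406) missed the threshold, the slope of CD44 being no smaller than with them. EPCAM, PROM1 and THY1 passed, but THY1 missed it without HS578T as well (-0.40, adjusted p = 0.0822). MME missed it also with the 58 lines as separate units (adjusted p = 0.159) and without a filter on low values (0.0567). The slope on CD44 is the same pair of genes as in the previous fit, seen from the other side, and is not a second piece of evidence.

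In the CD24 fit, the median slope of all genes was 0.01. All 9 epithelial identity genes rose (median 0.97), led by RAB25 (1.28), a regulator of vesicle recycling, and the claudins CLDN7 (0.97) and CLDN4 (1.02). Of 11 EPCAM partners 8 rose and 1 fell (median 0.85). The protease inhibitors SPINT2 (0.89, adjusted p = 4.26e-11) and SPINT1 (0.85) and the membrane protease ST14 (0.97) came first, and FHL2 was the gene that fell (-0.34). All 7 fibroblast markers fell (median -0.85), with periostin (POSTN, -1.13), lumican (LUM, -1.06) and COL1A2 (-1.02) first, 4 of them without HS362T, HS579MG, HS605T and HS739T and 3 without HS578T as well. Of 12 mesenchymal stromal genes 10 fell and 0 rose (median -0.59), led by ZEB2 (-0.48), ZEB1 (-1.12) and PDGFRB (-0.71), and 6 fell without the 4 lines and HS578T. Of 9 mature luminal genes 8 rose (median 0.59), with FOXA1 (1.11), KRT18 (0.22) and AGR2 (1.03) first. KRT18, CDH1, CLDN4, CLDN7, ESRP1 and EZR belong to more than 1 list. Of 4 tested CD24 ligands and partners 1 fell, ANXA2 (-0.08), and of the prominin and microvillus genes PROM2 (0.80) and EZR (0.11) rose and EPS8 (-0.14) fell.

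**Figure D4:**
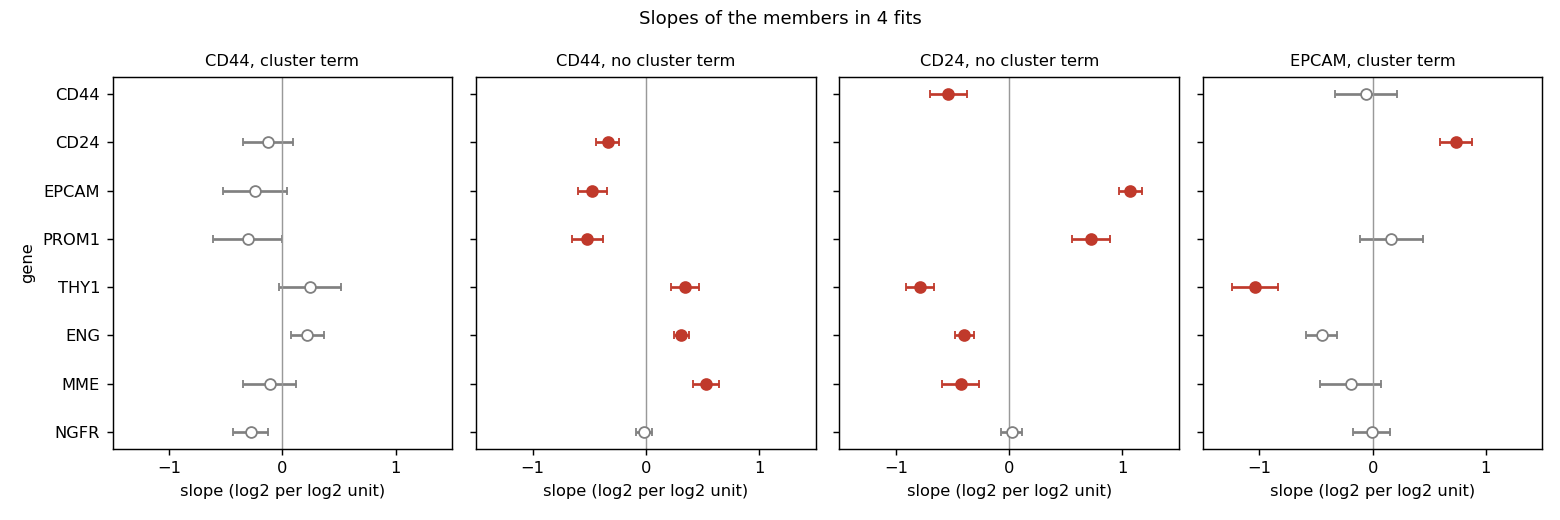
Slopes of the other members, in log2 units per log2 unit of the gene named above each panel, with bars of 1 SE, over 50 units. Filled red points passed an adjusted p of 0.05 over all genes in limma: 0 of 7 members for CD44 with the cluster term, 6 of 7 without it, 6 of 7 for CD24 and 2 of 7 for EPCAM with the cluster term.

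For EPCAM the cluster term was kept, so that the slope again describes change within clusters, where nearly all of the range lies in the 16 low units. Of the genes tested 129 rose (0.881%) and 125 fell (0.853%), and without HS362T, HS579MG, HS605T and HS739T 29 rose and 9 fell. Without the MDAMB435 set and MT3, 217 fell. CD24 rose by 0.74 per unit of EPCAM (SE 0.14, adjusted p = 0.00126) and THY1 fell by 1.04 (SE 0.20, adjusted p = 0.00171). Both missed the threshold without the 4 lines, with slopes of 0.52 (adjusted p = 0.175) and -0.71 (0.327). ENG had a slope of -0.45 (SE 0.14, adjusted p = 0.0787), which passed with the mean of probe sets (-0.32, adjusted p = 0.048) and without the MB157 and MDAMB157 pair (-0.52, adjusted p = 0.0493). CD44 had one of -0.06 (SE 0.27, adjusted p = 0.987). Beside a median of 0.01 over all genes, 6 of 11 EPCAM partners rose (median 0.44), led by SPINT2 (0.80), the adhesion protein CDH1 (0.97) and CLDN7 (0.65), but only 1 did without the 4 lines and HS578T. Of 9 epithelial identity genes 4 rose, and of 7 fibroblast markers COL1A2 (-1.19), POSTN (-0.90) and COL1A1 (-0.77) fell. Without the 4 lines these counts were 2 and 0, without HS578T as well 0 and 0, and without the MDAMB435 set and MT3 6 fibroblast markers fell. Of 12 mesenchymal stromal genes ZEB2 fell (-0.27), 0 did without the 4 lines or with array quality as a term, and 2 did without the MDAMB435 set and MT3. Of the basal and stem list ITGB4 rose (0.83), and of the prominin list PROM2 did (0.73).

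Without the cluster term 2500 genes rose with EPCAM (17.1%) and 1919 fell (13.1%), 1050 and 807 without the 4 lines, and 768 and 584 without HS578T as well. CD24 rose by 0.64 (SE 0.06, adjusted p = 8.88e-12) and PROM1 by 0.63 (SE 0.13, adjusted p = 0.00012). THY1 fell by 0.66 (SE 0.09), ENG by 0.36 (SE 0.06), CD44 by 0.45 (SE 0.12) and MME by 0.44 (SE 0.12), each past the threshold. Without the 4 lines MME missed it (slope -0.36, adjusted p = 0.11), and CD24, PROM1, THY1, ENG and CD44 passed. CD44 missed it without HS578T as well (-0.47, adjusted p = 0.0671). NGFR, at 0.05 (SE 0.07, adjusted p = 0.602), was again the member that did not pass. All 9 epithelial identity genes rose and all 7 fibroblast markers fell, and 11 of 12 mesenchymal stromal genes fell.

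The 4 probe sets of CD44 did not all report the same pattern. With the probe set used, 2 others correlated at r = 0.98 and 0.97 over the 58 lines, and the remaining one at 0.69. In the 24 lines of the high CD44 units with the splicing factor ESRP1 above background the divergent probe set ranged from 5.46 (SW527) through a median of 9.53 to 12.78 (HCC1806). In the 13 with ESRP1 at background it ranged from 4.91 (FR2) through 6.80 to 7.997 (HS578T), although CD44 by the probe set used was 11.43 to 12.83 there. HCC1569, with CD44 of 12.48, had 11.45 on the divergent probe set, and HS605T, with CD44 of 12.83, had 7.01. ESRP1 is known to favour the inclusion of variable exons in CD44 transcripts, and the transcript region this probe set reads is not given in the sources used here. The ranges of the 2 sets of lines overlapped. Over the 32 units with high CD44, the divergent probe set had r = 0.76 with ESRP1 but 0.05 with ESRP2, a gene of the same list. A part of splicing in this pattern was not tested.

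**Figure D5:**
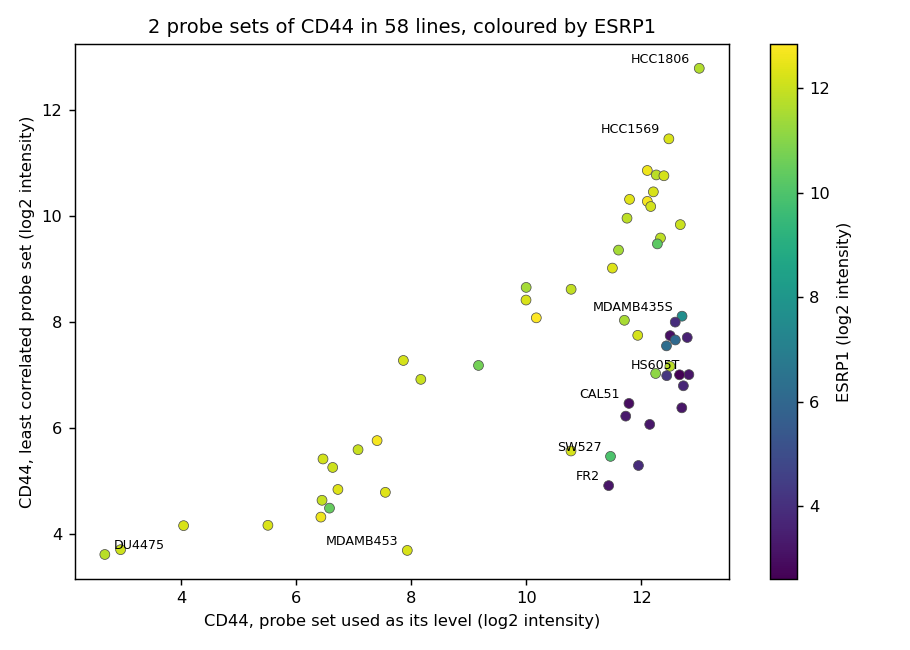
The CD44 probe set least correlated with the others (y axis) against the probe set used as the level of CD44 (x axis), log2 intensity in 58 lines, coloured by log2 ESRP1; the axes are different probe sets, so their levels are not comparable. At CD44 above 11 the points spread from 4.91 (FR2) to 12.78 (HCC1806) on the y axis, and the darkest points lie no higher than 7.997.

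The divergent probe set was fitted with the used probe set and the CD44 cluster as terms, a comparison added after the probe sets had been compared. With it 574 genes rose (3.92%) and 479 fell (3.27%), against 119 and 47 without HS362T, HS579MG, HS605T and HS739T. EPCAM rose by 1.07 (SE 0.18, adjusted p = 9.08e-05) and CD24 by 0.73 (SE 0.15, adjusted p = 0.00175), and both passed without the 4 lines as well, at 0.85 (adjusted p = 0.00717) and 0.54 (0.0269). THY1 had a slope of -0.64 (adjusted p = 0.0516), which passed without the MB157 and MDAMB157 pair (0.0341), and MME one of -0.48 (adjusted p = 0.0929), which passed without the MDAMB435 set and MT3 (0.0492). Both passed with the mean of probe sets, but that fit was of another kind. CD44 formed no separate clusters there, so the cluster term dropped out, and its mean level included the divergent probe set itself. ESRP1 rose by 1.57 (adjusted p = 2.59e-07) and ZEB1 fell by 1.32 (adjusted p = 1.2e-06), and without the 4 lines the slopes were 1.40 and -1.20. Of 9 epithelial identity genes 7 rose, and all 7 fibroblast markers fell, 3 of them without the 4 lines. At an equal CD44 level by the probe set used, then, EPCAM and CD24 were higher where the divergent probe set was higher.

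The genes most like each member were ranked by Pearson's r over the 50 units among detected genes, as a description over pooled clusters. CD44 was most like ETS1 (r = 0.84), a transcription factor, CAV1 (0.82) and CAV2 (0.79), which form caveolae, MSN (0.81) and KIRREL1 (0.79), and least like the potassium channel subunit KCNJ11 (-0.78), the mammary secretory gene MUCL1 (-0.76) and RAB26 (-0.76). CD24 was most like MAL2 (0.88), a protein of apical transport, CDS1 (0.87), MAP7 (0.86), PTPN3 (0.84) and TC2N (0.84), and least like ZEB2 (-0.81), the proteoglycan CSPG4 (-0.81) and RCN3 (-0.78). EPCAM was most like ANK3 (0.91), CLDN7 (0.91), ST14 (0.90), SPINT1 (0.90) and CHMP4C (0.90), and least like ZEB2 (-0.89), BNC2 (-0.86) and CNRIP1 (-0.85). CD24 and EPCAM thus had ZEB2 in common as the gene least like them.

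PROM1 was most like NCMAP (0.77), SPNS2 (0.72), TMEM61 (0.67), ERP27 (0.66) and USP6NL (0.66), and least like ADAMTSL5 (-0.67), MARVELD1 (-0.66) and HTRA1 (-0.64), a secreted serine protease. THY1 was most like MAP1A (0.84), EFEMP2 (0.83), COX7A1 (0.83), COL1A2 (0.83) and MEG3 (0.82), and least like CCDC88C (-0.82), MAP3K9 (-0.81) and MAP3K21 (-0.81). Spearman's rho for these 8 genes was smaller in size, between 0.35 (COX7A1) and 0.65 (MEG3) for the first 5 and between -0.34 (MAP3K9) and -0.58 (CCDC88C) for the others, and THY1 was at background in 46 of 58 lines, whose order cannot be resolved. ENG was most like ALDH1L2 (0.80), TWIST2 (0.77), ADAM12 (0.75), GAS1 (0.75) and ARHGAP31 (0.74), and least like ARFGEF3 (-0.75), EXOC6 (-0.75) and PAFAH1B3 (-0.74). MME was most like ANPEP (0.75), another membrane peptidase, the chemokines CXCL1 (0.75) and CXCL3 (0.73), IGFBP3 (0.68) and PRDM1 (0.68), and least like UCP2 (-0.70), CCDC121 (-0.67) and CLMN (-0.66). NGFR was most like CRYGN (0.76), NOTUM (0.69), TRDV1 (0.69), GFRA3 (0.68) and DKK4 (0.66), and least like BNIP3 (-0.65), TMED3 (-0.63) and RNF135 (-0.59). Spearman's rho for these 8 genes was smaller in size, from 0.02 for DKK4 to 0.33 for GFRA3 among the first 5 and -0.09 for BNIP3, -0.34 for TMED3 and -0.12 for RNF135, and NGFR was at background in 42 of 58 lines. DU4475, with NGFR of 9.95, was the unit with the highest level of CRYGN, NOTUM, TRDV1 and DKK4.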

How the data were processed

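The deposited table holds log2 values, which the authors obtained by RMA in Affymetrix Power Tools, per the submitters' processing notes; versions and whether the 58 arrays were normalized together are not given in the sources used here. RNA was amplified with a NuGEN protocol, per the labels. Of 52377 probe sets, 35184 named 1 gene, 374 named several and 16819 none; only the first were used, and a gene's level was its probe set with the highest mean. Symbols follow the platform annotation. Genes whose level exceeded the array median in 3 or more units (14651) were tested with limma 3.58.1 (trend and robust eBayes) in R 4.3.3, as slopes on the log2 level of CD44, CD24 or EPCAM, with Benjamini-Hochberg adjustment at 0.05 and a cluster term where mclust 6.1.1 split the level. All lines are 1 array each without replicates, so the number of arrays limits precision, and p-values measure spread between lines. Origins shared by lines come from general knowledge. Named genes were the 8 members, for each the 5 genes with the highest and 3 with the lowest r, and up to 3 genes of each list with the smallest adjusted p in a fit. Members and lists were chosen with earlier results of these data known. Fits were tested on simulated data. Alternatives covered probe sets, units, lines, filters, normalization, array quality and eBayes.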

Additional observations from a re-analysis of the deposited data

Results flagged for a closer look

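The probe set left out because it names both CD24 and CD24P4 carried signal: its highest level was 13.40 log2, in MFM223, the line with the highest CD24 by the probe set used, and over the 58 lines the 2 probe sets correlated at r = 0.97. It was at background in 8 lines, against 2 for the probe set used, and which of both genes it reads was not tested.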

How the results depend on the processing

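Of 914 values recomputed under 12 alternatives, 810 were called unchanged, and 482 of 498 slopes kept their sign. A count was called unchanged if it moved by at most 1.5 times, and r if it moved by less than its spread. For an SD the margin was the SD of the gene's levels within sets, which is wide, so few SDs could fail. For THY1 an SD of 1.81 without the 4 Hs lines and HS578T, against 2.74, was called unchanged. A slope was so called if its sign and side of the threshold held, or if its sign changed and neither fit passed. Without the 4 Hs lines, genes rising and falling numbered 945 and 637 with CD24, 29 and 9 with EPCAM, 1050 and 807 with EPCAM without its cluster term, and 119 and 47 with the divergent CD44 probe set. With HS578T left out as well, chosen after seeing the data, these were 693 and 411, 22 and 7, 768 and 584, and 107 and 42, and without the cluster term CD24 on CD44 (-0.21) and CD44 on EPCAM (-0.47) missed the threshold. Without the cluster term 1517 genes rose and 2191 fell with CD44 and 2500 and 1919 with EPCAM, and the slopes on CD44 of CD24 (-0.34) and EPCAM (-0.47) passed while that of MME changed sign to 0.53. With the mean of probe sets CD44 no longer split, so the term dropped out: 1367 genes rose and 1973 fell, the slopes of CD24 (-0.32) and EPCAM (-0.46) passed and that of MME was 0.54. With the divergent probe set 1027 rose and 961 fell, but there the CD44 term was a mean that included the divergent probe set itself. The small counts for CD44 within clusters were 12 up and 6 down with 58 lines as units, 10 and 3 with eBayes without trend and robust, and 13 and 12 without a filter. Genes falling with EPCAM numbered 69 with 58 lines as units, 72 with the stricter filter of 10 units, and 217 without the MDAMB435 set and MT3; those falling with the divergent probe set numbered 314 with array quality as a term. Leaving out the MB157 and MDAMB157 pair, an alternative chosen after seeing the data, moved no count of genes by over 1.5 times. No name of a single-gene probe set carried the usual Affymetrix suffix for cross-hybridisation, but names on this custom array may not use that suffix. An alternative without such probe sets was therefore not run, and cross-hybridisation was not tested. No paired analysis was possible because all lines form 1 group with no replicate numbers. Levels near 5.63 cannot be ordered.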
